A study of Mus musculus with 15 samples.

Results

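The genes described here are 41 mouse genes of the actin cytoskeleton and the phagocytic cup, the actin-rich membrane fold with which a macrophage closes around a particle. They were chosen by name, as the rows of the count table whose Ensembl gene identifier carried a listed mouse symbol, and they are 41 of the 78317 identifiers in the table. All 41 symbols were found. Of these, 40 had enough counts to be tested and 1, *Fscn1*, did not. The levels were read in every library of the 5 groups, with the spread of *Actb* between libraries as a point of interest.

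RNA was sequenced from MH-S cells, a line of SV40-transformed mouse alveolar macrophages, to compare their response to calcium phosphate (CaP) microrods with that to silica (SiO2) microrods, rod-shaped carriers built from nanoparticles. Each of the 5 groups had 3 libraries, and every treatment lasted 24 h. M0 cells received medium alone. CaP_rods and SiO2_rods cells received microrods crosslinked with alginate and then with protamine and carboxymethyl chitosan, at 0.1 mg/mL, each of the 3 wells with a separately prepared particle batch. M1 cells received IFN-γ (20 ng/mL) and LPS (1 µg/mL), and M2 cells received 20 ng/mL IL-4. The study gives separate wells of the same cell passage for the particle batches, and the labels do not say whether the M0, M1 and M2 samples were separate cultures. The p-values measure only the spread between these samples of 1 transformed line, which may be technical. As these are bulk libraries, fewer cells expressing a gene and less RNA of it per cell cannot be told apart.

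Actin filaments grow from monomers that profilin and thymosins hold in reserve. At a phagocytic cup, receptors switch on small GTPases, and these act through WASP and WAVE proteins on the Arp2/3 complex, which starts new filaments as branches on old ones. Ena/VASP proteins and formins lengthen filaments, capping proteins and gelsolin stop or sever them, cofilin takes them apart, and ERM proteins, talin, vinculin and myosin II tie the network to the membrane and pull on it. Many actin genes are read by serum response factor, which binds a DNA element called the CArG box.

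The promoters, taken as 250 bases before to 50 bases after the gene start in RefSeq's table for GRCm38.p6, were searched for a CArG box (CC, then 6 bases that are each A or T, then GG), a pattern that reads the same on both strands. A promoter was listed for 37 of the 41 genes, and *Actb*, *Diaph1*, *Pxn* and *Rac1* were not searched. The box was found in 4 of the 37 (10.8%), in 4 of 83 promoters of other actin pathway genes (4.82%) and in 488 of all 27025 promoters in the table (1.81%). The 4 stretches are shown since they hold the only CArG boxes found among these genes, and capitals mark the box, which begins 250, 50, 90 and 227 bases before the gene start in *Arpc4*, *Myl6*, *Actg1* and *Vcl*. A match describes the letters and not a bound site.
*Arpc4* (chr6:113377863-113377902, plus strand): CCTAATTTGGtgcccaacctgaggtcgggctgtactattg
*Myl6* (chr10:128493020-128493089, minus strand): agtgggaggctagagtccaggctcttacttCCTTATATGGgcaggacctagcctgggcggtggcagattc
*Actg1* (chr11:120348546-120348615, minus strand): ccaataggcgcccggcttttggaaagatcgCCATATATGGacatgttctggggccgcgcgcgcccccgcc
*Vcl* (chr14:20929148-20929210, plus strand): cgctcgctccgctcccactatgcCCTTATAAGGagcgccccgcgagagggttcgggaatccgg

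Total counts per library lay between 8459643 and 68750050, and replicates of a group differed beyond sampling noise (chi-square per gene 7.51 to 170). Counts of mitochondrially encoded genes made up 0.888% to 2.18% of a library. Of 14 macrophage markers, 9 were above 1 CPM (counts relative to the TMM-scaled library total) in every library and 3, namely *Chil3*, *Siglecf* and *Car4*, were under 1 CPM in all. Of the other markers shared with alveolar macrophages, *Itgax* lay between 1.57 and 4.93 CPM, *Mrc1* averaged 27.6 CPM in M2 and at most 1.85 CPM in the other groups, and *Marco* averaged 2.18 CPM in M1 and at most 0.147 CPM in the others. The summed macrophage markers lay between 4893 and 6398 CPM in M0, 6182 and 6813 in M1, 3430 and 5148 in M2, 5604 and 6134 in CaP_rods and 5874 and 6224 in SiO2_rods. Epithelial, fibroblast, T and B cell, endothelial and neutrophil lists summed to at most 0.116, 0.341, 0.132, 1.77 and 1.30 CPM. Libraries also differed in the level of genes with short transcripts and of genes with GC-rich transcripts. For the shortest quartile of transcript length, the median log2 CPM deviation ran from -0.72 in M0 replicate 3 to 0.69 in M2 replicate 3. These libraries had the lowest and highest total counts, and this range was wider than that of the highest GC quartile. The median deviation of the highest GC quartile (log2 CPM against the mean of 15 libraries) was lowest in M0 replicate 1 (-0.29), M1 replicate 1 (-0.28), M2 replicate 2 (-0.22) and M0 replicate 3 (-0.19).

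*Actb* (ENSMUSG00000029580), which encodes β-actin, had the highest count of all genes in 14 of the 15 libraries and the second highest (rank 2) in CaP_rods replicate 1. Its share of all counts ranged from 1.79% in CaP_rods replicate 1 to 6.91% in M0 replicate 1, with a median of 3.30%. In M0 it was at 71339.6, 33203 and 44324 CPM in replicates 1 to 3. In M1 it was at 45975, 33675 and 28153 CPM, and in M2 at 28223, 33967 and 35162 CPM. M0 replicate 1 stood far above every other library. The M1 and M2 values overlapped, with M1 replicate 1 above all M2 libraries. In CaP_rods *Actb* was at 18609, 30887 and 23619.9 CPM. In SiO2_rods it was at 33180.1, 30894 and 37697 CPM. All 3 CaP_rods values lay below all M0 values, with the nearest pair being 30887 and 33203 CPM, and also just below all SiO2_rods values.

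**Figure D1:**
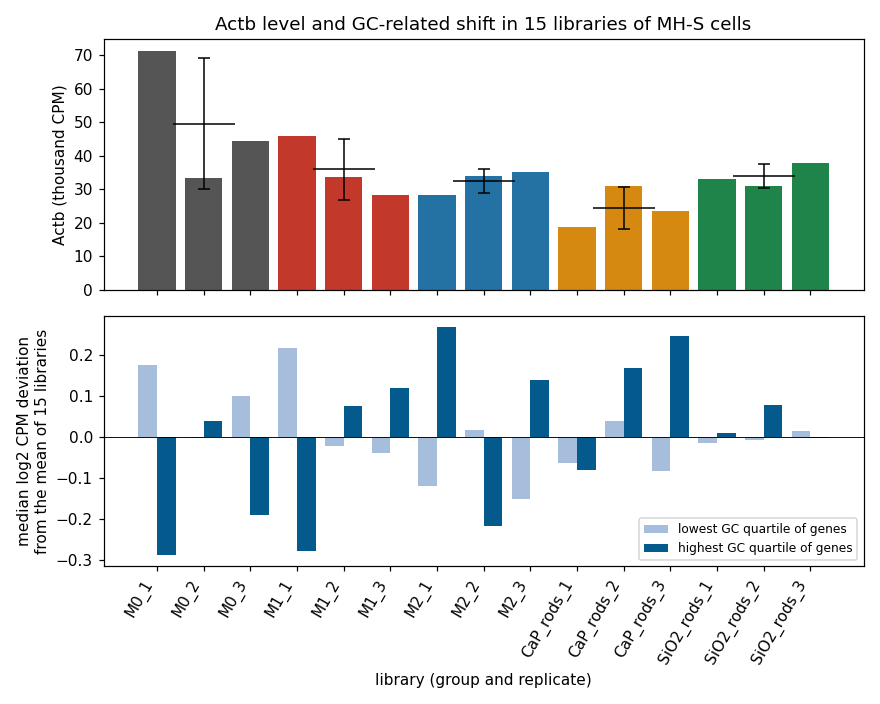
The upper panel plots *Actb* (in units of 1000 CPM) in each of the 15 libraries as bars, with the group mean and SD over 3 libraries in black, and the lower panel plots the median log2 CPM deviation of the lowest and highest GC quartiles of genes from the mean of the 15 libraries. *Actb* reached 71339.6 CPM in M0 replicate 1 and 18609 CPM in CaP_rods replicate 1, and the highest GC quartile was lowest in M0 replicate 1 (-0.29) and highest in M2 replicate 1 (0.27).

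Across the 15 libraries the highest *Actb* level was 3.83 times the lowest, and without M0 replicate 1 it was 2.47 times the lowest. Within groups the ratio was 2.15 in M0, 1.63 in M1, 1.25 in M2, 1.66 in CaP_rods and 1.22 in SiO2_rods. The spread within groups (pooled SD of log2 CPM) was 0.353, which exceeded that of 69.4% of the 3271 genes with a mean of at least 50 CPM, whose median was 0.265. Among the 40 genes tested, 15 had a larger within-group SD than *Actb*. The 41 genes took 3.68% to 8.58% of all counts with *Actb* and 1.67% to 2.14% without it.

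*Actb* was not called in any of the 6 comparisons, where a gene was called at an adjusted p below 0.05 with an absolute log2 fold change above 0.5. Its estimate was lower than in M0 in all 4 treated groups. The log2 fold change was -1.03 (SE 0.27, edgeR adjusted p = 0.108) in CaP_rods, -0.61 (SE 0.27, edgeR adjusted p = 0.260) in M2, -0.55 (SE 0.27, edgeR adjusted p = 0.649) in SiO2_rods and -0.47 (SE 0.27, edgeR adjusted p = 0.285) in M1. These 4 comparisons share the M0 libraries, whose replicate 1 set the M0 mean apart. Without it the CaP_rods estimate was -0.70 (edgeR adjusted p = 0.472), and without M0 replicate 2 it was -1.25 and called (edgeR adjusted p = 0.0428). DESeq2 also called it in CaP_rods (log2 fold change -1.05, DESeq2 adjusted p = 0.0212).

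Reads of *Actb* could be split with other loci. Of the 31-base stretches of its longest protein-coding transcript, 35.3% also occurred in transcripts of other genes, most often in *Lrrc58* (22.7%). *Lrrc58* lay between 417 and 4971 CPM and was highest in M0 replicate 1, the library with the highest *Actb*, while its lowest value was in M2 replicate 2. Whether reads were exchanged between these genes was not tested.

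The genes whose within-group deviations of log2 CPM followed *Actb* most closely over the 15 libraries, among those with a mean of at least 50 CPM, were *Yme1l1* (Pearson's r = 0.922), *Mtdh* (0.921), *Gsdme* (0.919), *Gas2l3* (0.918) and *Gm4204* (0.906). None of these is among the 41 genes. The most opposite were *Ube2a* (-0.955), *Rpl10* (-0.925), *Tmem14c* (-0.919), *Nfkbia* (-0.918) and *Bax* (-0.915). Among the actin genes, the highest r with *Actb* was found for *Wipf1* (0.689), *Rac1* (0.680), *Rhoa* (0.657) and *Actg1* (0.630), and the lowest for the Arp2/3 subunits *Arpc3* (-0.892), *Arpc1b* (-0.864) and *Arpc4* (-0.756). These values describe the same 15 libraries with their shared depth and GC differences, and the genes were picked as extremes.

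*Actg1* (ENSMUSG00000062825), which encodes γ-actin, the other cytoplasmic actin, varied far less. It was at 500.1, 378 and 533 CPM in M0, at 559.7, 465 and 465 CPM in M1 and at 478, 546 and 407 CPM in M2. In CaP_rods it was at 337, 436 and 417 CPM and in SiO2_rods at 387, 432 and 474 CPM. The groups overlapped in every comparison, and its log2 fold changes lay between -0.25 (CaP_rods vs. M0) and 0.08 (M1 vs. M0). Per kilobase of transcript the level of *Actb* was 56.1 to 145 times that of *Actg1*, with a median of 73.6 over the libraries. Of its 31-base stretches 57.1% were shared with other genes, most with *Gm12715*, which was at 0 counts in every library.

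Per kilobase of transcript the levels of the other genes differed widely. After *Actb* (mean 18365 CPM per kb) came the profilin gene *Pfn1* (2706), the barbed-end capping gene *Capg* (2342) and the thymosins *Tmsb4x* (2140.2) and *Tmsb10* (1326), while *Cap1*, of the same monomer-binding group, was at 6.62. The 7 Arp2/3 subunits lay between 102 (*Actr3*) and 955 CPM per kb (*Arpc2*). The 6 membrane and adhesion linkers lay between 0.223 (*Vcl*) and 18.6 (*Msn*), all below the lowest Arp2/3 subunit.

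**Figure D2:**
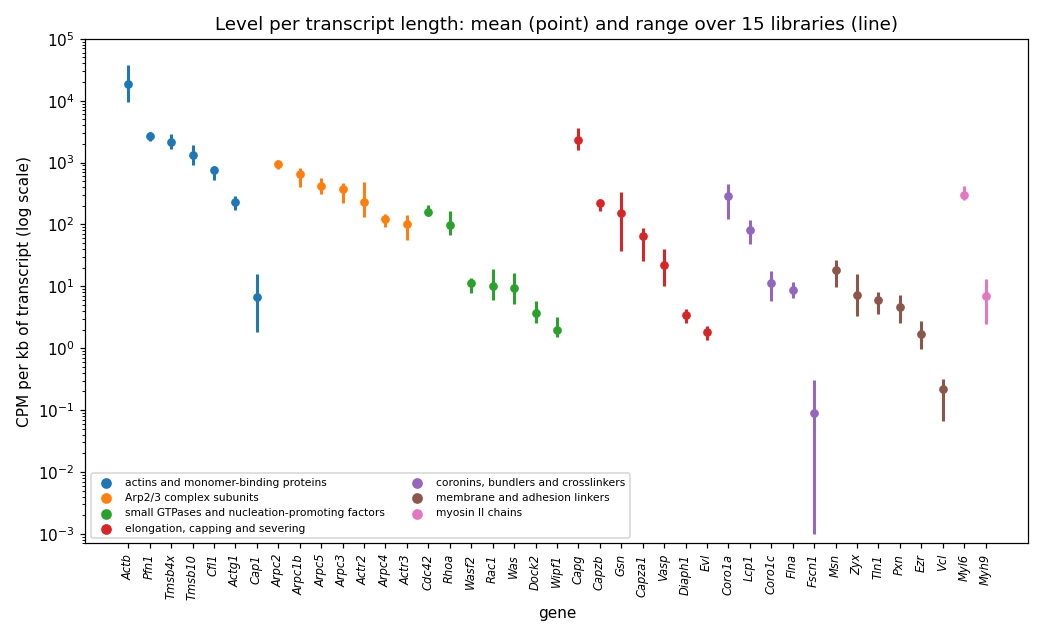
Each point is the mean level of 1 of the 41 genes over 15 libraries in CPM per kb of transcript on a log scale, and the line spans the lowest to the highest library, with colours for the 7 roles. *Actb* (18365 CPM per kb) stands apart at the top, *Vcl* (0.223) is the lowest gene tested, and the line of *Fscn1*, which had libraries at 0, is cut off at the bottom of the axis.

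In CPM, 7 of the 40 genes had a mean above 1000, 15 lay between 100 and 1000, 14 between 10 and 100, and 4 (*Wipf1*, *Ezr*, *Evl* and *Vcl*) under 10. The highest library exceeded the lowest by over 2-fold for 26 of the 40. *Arpc2* was the steadiest gene (1.40-fold) and *Gsn* the most variable (9.14-fold). The 5 genes with the largest within-group SD were *Cap1* (0.658), *Gsn* (0.651), *Coro1a* (0.621), *Myh9* (0.603) and *Vcl* (0.578), against a median of 0.292 over the 40.

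In the comparison of M1 with M0, which asks what classical activation does to these genes, 1 of the 40 was called. Among all 16654 genes tested 14.1% were called. The called gene was *Vasp*, higher in M1 (9.7% of all genes were called higher). DESeq2 called 2, *Vasp* and the low-count gene *Fscn1* (10.4% of the genes it tested). At an unadjusted p below 0.05 there were 4 of the 40 (27.7% of all genes), namely *Vasp* and *Msn* higher and *Arpc4* and *Dock2* lower. The libraries of the 2 groups did not overlap for 6 of the 40 (32.2% of all genes). The median log2 fold change of the 40 was 0.01, beside -0.01 over all genes tested.

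In M2 against M0, the comparison for alternative activation, edgeR called 0 of the 40, beside 4.13% of all genes. DESeq2 called 3 (*Ezr*, *Gsn* and *Zyx*, all higher in M2, beside 5.05% of the genes it tested), and 6 of the 40 had an unadjusted p below 0.05 in edgeR, 5 of them higher in M2 (17.2% of all genes). The libraries did not overlap for 6 (15.2% of all genes). The estimates were above 0 for 33 of the 40 genes, beside 9363 of all 16654 genes tested. Their median log2 fold change was 0.15, beside 0.07 over all genes tested.

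M1 differed from M2 in 5 of the 40 genes, 1 higher and 4 lower in M1, beside 16.1% of all genes (10.6% called higher and 5.46% called lower). *Vasp* was higher in M1, and *Arpc4*, *Gsn*, *Ezr* and *Zyx* were lower. DESeq2 called 6, the same 5 and *Dock2*, lower in M1 (14.6% of the genes it tested). The libraries did not overlap for 14 of the 40 (29.4% of all genes), 5 higher and 9 lower in M1 (18.2% and 11.2% of all genes). At an unadjusted p below 0.05 there were 8 (29.8% of all genes). The median log2 fold change was -0.14, beside -0.04 over all genes tested. The share called among these genes was 12.5% here and 2.5% in M1 against M0, in both cases no higher than among all genes.

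In the microrod comparisons, which ask whether particles that are taken up change these genes after 24 h, edgeR called 0 of the 40 in CaP_rods against M0 (0.654% of all genes), 0 in SiO2_rods against M0 (0.264%) and 0 in CaP_rods against SiO2_rods (0.018%). DESeq2 called 1 (*Actb*, lower), 0 and 0, beside 2.76%, 0.654% and 0.0846% of the genes it tested. At an unadjusted p below 0.05 there were 7 of the 40 in CaP_rods (15.8% of all genes), 2 in SiO2_rods (8.17%) and 0 between the microrods (1.66%). The 7 were *Cap1*, *Gsn*, *Tmsb10*, *Ezr* and *Arpc3* with higher estimates and *Actb* and *Actr2* with lower ones, and the 2 were *Gsn* and *Tmsb10* with higher estimates. The libraries did not overlap for 8 (17.4% of all genes), 5 (18%) and 6 (8.1%). With so few genes called in all, a count of 0 among 40 is near the background.

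**Figure D3:**
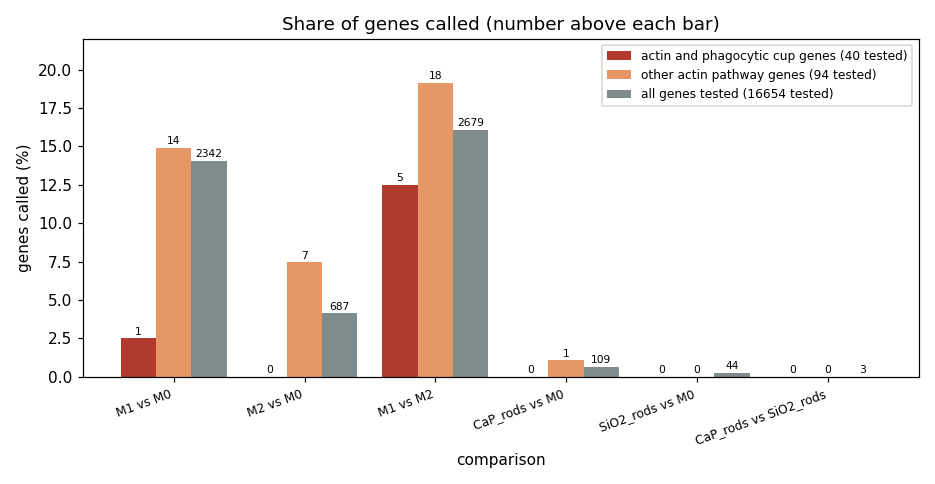
The bars give the share of genes called (%) among the 40 actin and phagocytic cup genes, 94 other actin pathway genes and all 16654 genes tested in 6 comparisons, with the number of genes above each bar. Calls among the 40 genes occurred in M1 vs. M0 (1) and M1 vs. M2 (5), and all 3 microrod comparisons had 0.

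**Figure D4:**
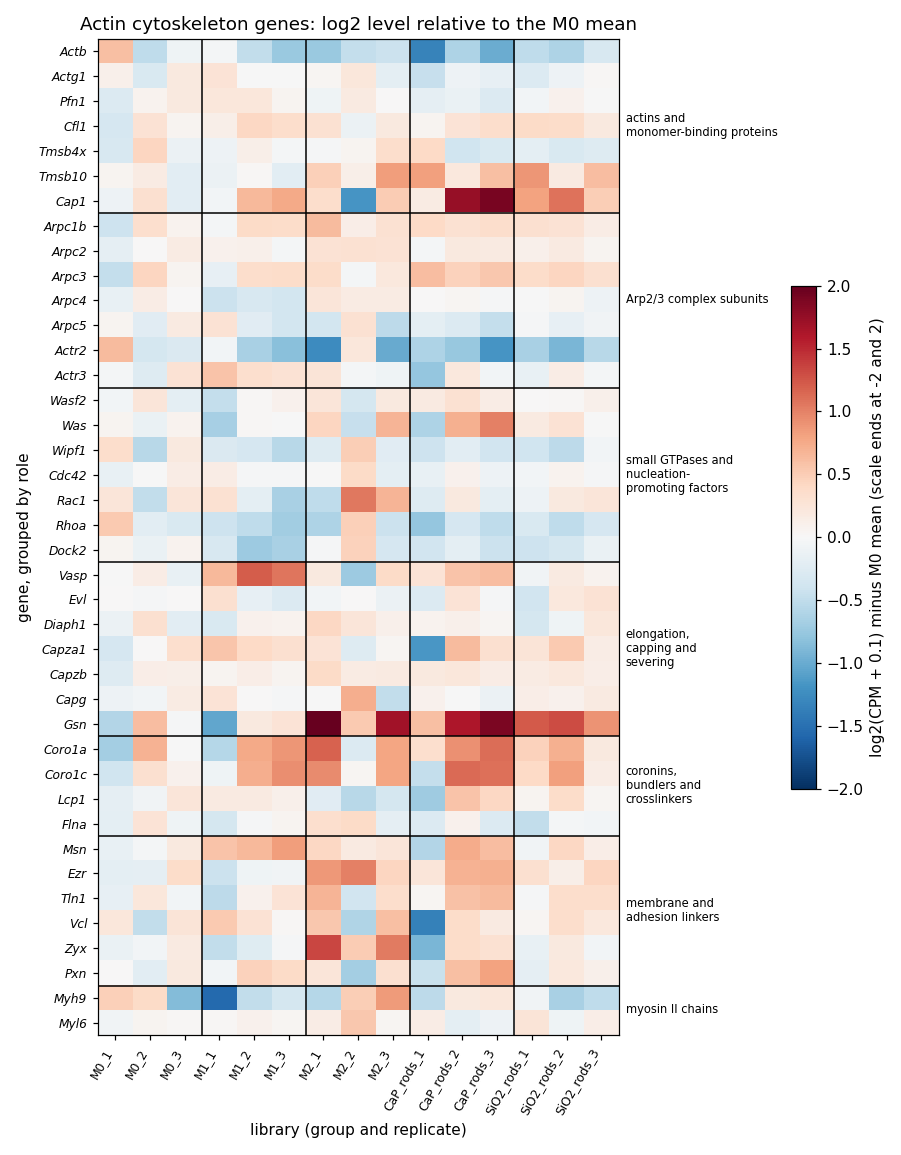
Rows are the 40 tested genes grouped by role and columns the 15 libraries, and colour gives log2(CPM + 0.1) minus the mean of the 3 M0 libraries, with the scale ending at -2 and 2. *Gsn* is red in all M2, CaP_rods and SiO2_rods libraries, *Vasp* is red in the 3 M1 libraries, and *Actb* and *Actr2* are blue in all CaP_rods and SiO2_rods libraries.

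Of the 7 actins and monomer-binding genes, the main edgeR test (all 15 libraries, TMM, filter on low counts) called 0 in any comparison. DESeq2 called *Actb* in CaP_rods as given above. Without the filter, edgeR called *Actb* in M2, CaP_rods and SiO2_rods against M0. It also called *Cap1* in CaP_rods against M0 and *Tmsb10* in M1 against M2. *Cap1* (ENSMUSG00000028656), whose product recycles actin monomers together with cofilin, was at 10.7, 14.3 and 9.85 CPM in M0, at 11.1, 18.1 and 19.4 CPM in M1 and at 14.7, 5.00 and 16.4 CPM in M2. It was at 12.8, 38.7 and 43.2 CPM in CaP_rods and at 20.1, 24.4 and 16.2 CPM in SiO2_rods. All SiO2_rods values and 2 of the 3 CaP_rods values exceeded all M0 values. The log2 fold change against M0 was 1.43 (SE 0.44, edgeR adjusted p = 0.152) for CaP_rods and 0.79 (SE 0.44, edgeR adjusted p = 0.696) for SiO2_rods. Without CaP_rods replicate 1 the former was 1.80 and called (edgeR adjusted p = 0.0449).

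*Tmsb10*, a thymosin that holds actin monomers, had means of 725 ± 95.8 CPM in M0, 672 ± 54.5 in M1, 1024 ± 256 in M2, 1069.6 ± 220.0 in CaP_rods and 1083 ± 254 in SiO2_rods (SD, n = 3). Its M1 libraries lay below those of M2 (log2 fold change -0.61, SE 0.22, edgeR adjusted p = 0.0809), and edgeR called this without M2 replicate 2. Both microrod groups lay above M0 in every library. The edgeR adjusted p-values were 0.252 for CaP_rods and 0.490 for SiO2_rods, and 43% of its 31-base stretches are shared with *Gm9844*, itself at 195 to 685 CPM, so its level is uncertain. *Tmsb4x* (1425 to 2537 CPM over the libraries), the cofilin gene *Cfl1* (1251 to 2101 CPM) and *Pfn1* (1909.9 to 2706 CPM) had log2 fold changes between -0.29 and 0.29 in all 6 comparisons.

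Among the 7 Arp2/3 subunits only *Arpc4* (ENSMUSG00000079426), which encodes a core subunit that holds the complex on the mother filament, was called by the main edgeR test in any of the 6 comparisons. It was at 256, 313 and 284 CPM in M0, at 209, 227 and 219 CPM in M1 and at 335, 319 and 319 CPM in M2. In CaP_rods it was at 286, 290.5 and 280.3 CPM and in SiO2_rods at 282, 295 and 265 CPM. The 3 M1 libraries lay below the other 12, and the replicates were close. M1 was lower than M2 by a log2 fold change of -0.57 (SE 0.12, edgeR adjusted p = 0.00459), which held without each of the 6 libraries in turn and was lost with GC offsets (0.0529) and without a filter on low counts (0.0772). Against M0 the log2 fold change was -0.38 (SE 0.12, edgeR adjusted p = 0.0471), short of the minimum fold change for a call.

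*Actr2* (ENSMUSG00000020152), which encodes Arp2, was the most variable subunit. It was at 1768, 893 and 937 CPM in M0, at 1100.5, 729 and 636 CPM in M1 and at 474, 1333 and 565 CPM in M2. It was at 741, 673 and 503 CPM in CaP_rods and at 729, 605 and 772 CPM in SiO2_rods. Both microrod groups lay below M0 in every library. The log2 fold changes against M0 were -0.91 (SE 0.37, edgeR adjusted p = 0.262) for CaP_rods and -0.77 (SE 0.37, edgeR adjusted p = 0.632) for SiO2_rods. In all 5 groups *Actr2*, whose transcript has a GC content of 40.3%, was highest in the library whose GC-rich genes were lowest for its group. That was the case for 2.92% of all genes tested.

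The other subunits were steadier. *Arpc2* had the narrowest range of all (1122 to 1567 CPM). *Arpc1b* lay between 1256 and 2583 CPM, *Arpc3* between 197 and 420.2 CPM, *Arpc5* between 596 and 1061 CPM and *Actr3*, which encodes Arp3, between 145 and 369 CPM. *Arpc3* was higher in all CaP_rods libraries than in M0 (log2 fold change 0.49, SE 0.21, edgeR adjusted p = 0.282). The counts of *Actr3* and *Arpc1b* are uncertain, as 63.6% and 52% of their 31-base stretches are shared with other genes.

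Of the small GTPases with their activators and nucleation-promoting factors, the main edgeR test called 0 of 7 in any comparison. In M1 against M2, DESeq2 called *Dock2*, and edgeR called it with DESeq2 size factors or total counts as scaling, with at least 10 counts required in every library and without M2 replicate 3, and called *Rac1* without M2 replicate 1. *Cdc42*, the GTPase that acts at the early cup, was nearly level at 294 to 438 CPM. *Rac1*, which drives cup extension through WAVE, lay between 24.7 and 80.3 CPM, though 55.8% of its 31-base stretches are shared, most with *Daglb*. *Rhoa*, the GTPase for contraction, was highest in M0 replicate 1 (368 CPM) and lowest in CaP_rods replicate 1 (150.1 CPM), and its M1 and CaP_rods libraries lay below those of M0 (log2 fold changes -0.59 and -0.58, edgeR adjusted p = 0.181 and 0.327). The WAVE gene *Wasf2* lay between 43.9 and 75.7 CPM, the WASP gene *Was* between 10.8 and 34.7 CPM and the WASP-interacting gene *Wipf1* between 7.15 and 14.9 CPM. *Dock2*, a Rac activator of leukocytes, averaged 27.1 ± 2.03 CPM in M0 and 18.3 ± 2.81 CPM in M1 (SD, n = 3), and the M1 libraries lay below those of M0 (log2 fold change -0.57, edgeR adjusted p = 0.0831). In M1 against M2 its log2 fold change was -0.62 (SE 0.20, edgeR adjusted p = 0.0554), and the groups overlapped. Estimates were below 0 for all 7 of these genes in M1 against M2, from -0.67 to -0.04, beside 8722 of all 16654 genes tested.

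Of the genes for elongation, capping and severing, *Vasp* and *Gsn* were called and the other 5 were not called by edgeR with all 15 libraries in any comparison. *Vasp* (ENSMUSG00000030403) encodes an Ena/VASP protein that shields growing filament ends from capping. It was at 37.6, 41.7 and 34.2 CPM in M0, at 59.1, 87.8 and 79.6 CPM in M1 and at 43.0, 22.6 and 49.0 CPM in M2. All M1 libraries exceeded all M0 and M2 libraries. It was at 45.8, 55.8 and 58.1 CPM in CaP_rods and at 35.9, 42.7 and 39.5 CPM in SiO2_rods, and CaP_rods lay between M1 and M0 without overlap.

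*Vasp* rose in M1 by a log2 fold change of 1.00 against M0 (SE 0.24, edgeR adjusted p = 0.0142) and was higher by 0.97 than in M2 (SE 0.24, edgeR adjusted p = 0.0144). The CaP_rods estimate against M0 was 0.49 (SE 0.24, edgeR adjusted p = 0.342) and that of SiO2_rods 0.05 (SE 0.24, edgeR adjusted p = 0.984). The call against M0 was narrow: without M0 replicate 1, M0 replicate 3, M1 replicate 2 or M1 replicate 3 the edgeR adjusted p was 0.0501, 0.0529, 0.068 and 0.0505. The call against M2 was lost without M1 replicate 2 (edgeR adjusted p = 0.0646) and with only the 6 libraries compared in the model (0.118).

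*Gsn* (ENSMUSG00000026879) encodes gelsolin, a calcium-dependent protein that severs and caps filaments. It was at 132, 307 and 196 CPM in M0, at 97.5, 229.8 and 242 CPM in M1 and at 891, 286 and 637 CPM in M2. M2 exceeded M1 in every library but overlapped with M0 at 1 library. In CaP_rods it was at 303, 614 and 735 CPM and in SiO2_rods at 467, 493 and 374 CPM. All SiO2_rods libraries exceeded all M0 libraries, and CaP_rods replicate 1 overlapped with M0.

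*Gsn* was lower in M1 than in M2 by a log2 fold change of -1.67 (SE 0.46, edgeR adjusted p = 0.0231). It lost the call without M1 replicate 1 (0.0916), M2 replicate 1 (0.0972) or M2 replicate 3 (0.0598), and with only the 6 libraries compared in the model (0.0759). Against M0 the estimates were 1.52 for M2 (SE 0.46, edgeR adjusted p = 0.0861), 1.38 for CaP_rods (SE 0.45, edgeR adjusted p = 0.179) and 1.07 for SiO2_rods (SE 0.45, edgeR adjusted p = 0.553). DESeq2 called M2 against M0 (log2 fold change 1.51, DESeq2 adjusted p = 0.0234), as did edgeR without M2 replicate 2 (1.85, edgeR adjusted p = 0.0218).

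The order of *Gsn* levels within each group was set beside the GC-related deviation of the libraries. In all 5 groups *Gsn* was lowest in the library whose GC-rich genes were lowest for its group (M0 replicate 1, M1 replicate 1, M2 replicate 2, CaP_rods replicate 1 and SiO2_rods replicate 3). The same held for *Coro1a*, *Coro1c* and *Cfl1*, so for 4 of the 40 genes, and for 8.24% of all genes tested. The median deviation of the GC-rich genes was small in CaP_rods replicate 1 (-0.08) and SiO2_rods replicate 3 (-0.0028). Between groups the order could differ. M1 replicate 3, with a deviation of 0.12, had less *Gsn* (242 CPM) than CaP_rods replicate 1 (303 CPM). With offsets for transcript GC content, an alternative added after the data were seen, *Gsn* was still called lower in M1 than in M2 (log2 fold change -1.58, edgeR adjusted p = 0.00561), and its estimate in CaP_rods against M0 was 1.05 in place of 1.38.

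*Capg*, the most abundant capping gene of macrophages here, lay between 2202 and 5159 CPM, both extremes being M2 libraries. The capping protein genes *Capza1* and *Capzb* lay between 81.1 and 282 CPM and between 284 and 440.5 CPM. The former is uncertain, as 83.9% of its 31-base stretches are shared. The formin gene *Diaph1* lay between 14.8 and 25.1 CPM and the Ena/VASP gene *Evl* between 2.99 and 4.90 CPM. Unlike its relative *Vasp*, *Evl* had a log2 fold change of -0.02 in M1 against M0, and the difference between them was not tested.

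**Figure D5:**
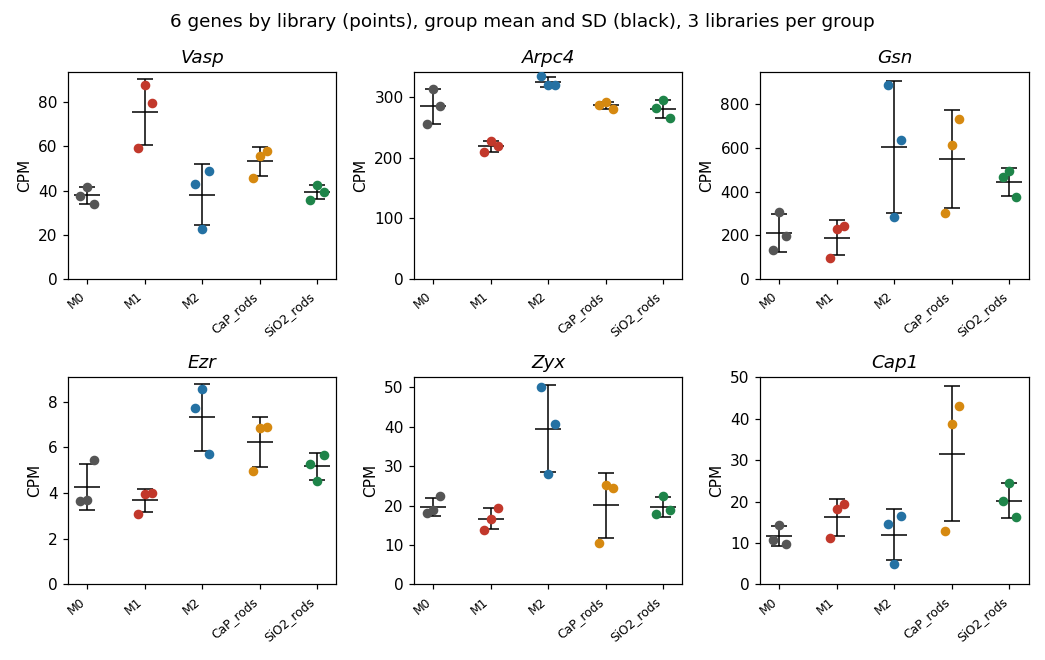
Points are the CPM of *Vasp*, *Arpc4*, *Gsn*, *Ezr*, *Zyx* and *Cap1* in each library of the 5 groups, with the mean and SD over 3 libraries in black. *Vasp* was highest in M1 (75.5 CPM), *Arpc4* lowest in M1 (218 CPM), and *Zyx* and *Ezr* highest in M2 (39.5 and 7.32 CPM). The SD of *Gsn* was wide in M2 (304 CPM) and CaP_rods (223 CPM), and that of *Cap1* was wide in CaP_rods (16.4 CPM).

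Of the coronins, bundlers and crosslinkers, the main edgeR test called 0 of the 4 tested in any comparison. Without the filter on low counts, edgeR called *Coro1a* in CaP_rods against M0. *Coro1a* (ENSMUSG00000030707), a leukocyte coronin found on phagosomes, was at 214, 553 and 343 CPM in M0, at 231, 582 and 634 CPM in M1 and at 779, 283 and 594 CPM in M2. It was at 434, 646 and 742 CPM in CaP_rods and at 473, 563 and 392 CPM in SiO2_rods. Replicates of M0, M1 and M2 differed by over 2-fold, and no pair of groups was separated. The largest estimate was 0.72 for CaP_rods against M0 (SE 0.43, edgeR adjusted p = 0.434). *Coro1c* lay between 19.9 and 60.9 CPM, with both extremes in CaP_rods.

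*Lcp1*, which encodes the leukocyte bundling protein L-plastin, averaged 235 ± 26.7 CPM in M2 and 307 ± 47.5 to 349 ± 143 CPM in the other groups (SD, n = 3). Its M2 libraries lay below those of M0 and M1, but the edgeR adjusted p-values were 0.493 and 0.181. The filamin gene *Flna* lay between 54.0 and 98.8 CPM. *Fscn1*, which encodes fascin, a bundler of filopodia, had 4, 0 and 0 counts in M0 and 8, 12 and 5 in M1. It had 2, 1 and 13 counts in M2, 4, 5 and 15 in CaP_rods and 1, 2 and 0 in SiO2_rods. Summed over each group this is 0.0645 CPM in M0 (exact Poisson 95% interval 0.0176 to 0.165) and 0.684 CPM in M1 (0.443 to 1.01). These intervals cover counting error only, and the filter on low counts removed the gene from the edgeR test.

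Of the 6 membrane and adhesion linkers, *Ezr* and *Zyx* were called, both lower in M1 than in M2. *Ezr* (ENSMUSG00000052397) encodes ezrin, which links filaments to membrane proteins. It was at 3.66, 3.71 and 5.44 CPM in M0, at 3.10, 3.97 and 3.98 CPM in M1 and at 7.71, 8.55 and 5.70 CPM in M2. It was at 4.96, 6.84 and 6.90 CPM in CaP_rods and at 5.29, 4.54 and 5.67 CPM in SiO2_rods. M2 exceeded M0 and M1 in every library, while both microrod groups overlapped with M0.

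The log2 fold change of *Ezr* was -0.95 in M1 against M2 (SE 0.25, edgeR adjusted p = 0.0183) and 0.78 in M2 against M0 (SE 0.24, edgeR adjusted p = 0.0928). The former lost the call without M1 replicate 1 (0.0783) and without M2 replicate 1 (0.0582). It was also lost with only the 6 libraries compared (0.066), with GC offsets (0.0621) and without a filter on low counts (0.053). DESeq2 called the latter (log2 fold change 0.79, DESeq2 adjusted p = 0.0432). *Msn*, which encodes the related moesin, was the ERM gene with the higher level per kilobase (18.6 against 1.69 CPM per kb). It averaged 57.5 ± 7.05 CPM in M0 and 92.1 ± 9.22 CPM in M1 (SD, n = 3) without overlap (log2 fold change 0.68, SE 0.27, edgeR adjusted p = 0.113). The estimate of *Ezr* in M1 against M0 was -0.17, and the difference between the genes was not tested. In M2, CaP_rods and SiO2_rods against M0 the estimates of both genes were above 0.

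*Zyx* (ENSMUSG00000029860) encodes zyxin, an adhesion and stress-fibre protein that recruits Ena/VASP proteins. It was at 17.99, 18.9 and 22.4 CPM in M0, at 13.9, 16.7 and 19.3 CPM in M1 and at 50.02, 27.9 and 40.6 CPM in M2. It was at 10.4, 25.3 and 24.4 CPM in CaP_rods and at 17.8, 22.5 and 18.9 CPM in SiO2_rods. All M2 libraries exceeded the other 12. The log2 fold change was -1.25 in M1 against M2 (SE 0.30, edgeR adjusted p = 0.012), which lost the call without M1 replicate 1 (0.0559) or M2 replicate 1 (0.0503). In M2 against M0 it was 1.02 (SE 0.30, edgeR adjusted p = 0.0812), which DESeq2 called (1.01, DESeq2 adjusted p = 0.0298) and edgeR called without M2 replicate 2 (1.20, edgeR adjusted p = 0.0299). The estimates for CaP_rods and SiO2_rods against M0 were 0.02 and 0.00.

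*Vcl* (ENSMUSG00000021823), which encodes vinculin, was the lowest gene tested. It was at 1.24, 0.715 and 1.27 CPM in M0, 1.55, 1.30 and 1.07 in M1, 1.57, 0.658 and 1.65 in M2, 0.349, 1.38 and 1.20 in CaP_rods and 1.08, 1.36 and 1.23 in SiO2_rods. These rest on 5 to 115 counts per library, and the groups overlapped in all 6 comparisons. Of the 31-base stretches of *Vcl*, 39.4% are shared with *Ap3m1*, itself at 13.4 to 36.9 CPM, so its level is uncertain. The talin gene *Tln1*, which activates integrins, lay between 29.8 and 69.2 CPM and the paxillin gene *Pxn*, an adhesion scaffold, between 9.48 and 26.5 CPM. Neither was called, and their log2 fold changes lay between -0.31 and 0.43.

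Of the 2 myosin II chains, *Myh9* (ENSMUSG00000022443), the heavy chain of non-muscle myosin IIA, was at 76.9, 71.7 and 30.1 CPM in M0, at 18.6, 39.1 and 42.9 CPM in M1 and at 37.1, 77.8 and 99.4 CPM in M2. It was at 38.1, 63.1 and 64.4 CPM in CaP_rods and at 52.2, 35.02 and 38.7 CPM in SiO2_rods. All groups overlapped. The log2 fold change in M1 against M2 was -1.10 (SE 0.42, edgeR adjusted p = 0.0970), and it was called without M2 replicate 1 (-1.42, edgeR adjusted p = 0.0390). The light chain gene *Myl6*, which holds a CArG box in the promoter shown above, lay between 409 and 686 CPM, and its log2 fold changes lay between -0.21 and 0.26. Of the 4 genes with a box, *Arpc4* was called in 1 comparison and *Actg1*, *Myl6* and *Vcl* in none.

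CaP and SiO2 microrods were given at the same mass concentration and for the same time, but the rods differ in density, so equal mass holds different numbers of rods per cell. For the 12 genes named with their values in every library, the log2 difference between CaP_rods and SiO2_rods ranged from -0.48 for *Actb* (SE 0.27) to 0.64 for *Cap1* (SE 0.43), and *Vcl* was at -0.45 (SE 0.44). All 40 edgeR adjusted p-values were 1, and the median SE was 0.23 on the log2 scale, so differences of this size could not be told from the spread between wells. The median difference over the 40 was 0.02, beside 0.03 over all genes tested.

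Another 107 genes of actin regulation, of which 94 were tested, were read beside these. They comprised paralogs and partners of the Arp2/3, WAVE and WASP proteins, small GTPases and their regulators, formins, severing and capping proteins, crosslinkers, myosins and integrin linkers. In M1 against M0, 14 of the 94 were called, 8 higher and 6 lower. In M2 against M0, 7 were called, 4 higher and 3 lower. M1 differed from M2 in 18, with 12 higher and 6 lower. These counts, like those above, stand beside 14.1%, 4.13% and 16.1% of all genes, and they were not recomputed without single libraries.

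Among these genes the crosslinker *Marcks* had the largest change. It had 2, 3 and 3 counts in M0 and 107, 119 and 61 in M1, so its summed counts were 60.8 times as high per library size (exact Poisson 95% interval 30.5 to 142, counting error only). Its M1 level was 7.75 ± 1.67 CPM (SD, n = 3, edgeR adjusted p = 4.2e-07). *Cyfip2*, a WAVE complex subunit, rose from 0.311 ± 0.233 to 1.15 ± 0.407 CPM in M1 (edgeR adjusted p = 0.0205). That rested on 3 to 6 counts per library in M0 and 8 to 19 in M1. Its summed counts gave 1.14 CPM in CaP_rods and 0.645 CPM in SiO2_rods, where it was not called against M0. *Lsp1*, a leukocyte F-actin-binding protein, fell from 530.3 ± 123 to 167 ± 10.3 CPM (edgeR adjusted p = 1.0e-05), and the Rac activator *Dock1* fell from 68.8 ± 19.6 to 25.7 ± 10.8 CPM (edgeR adjusted p = 0.00928). The first of these falls was also seen against M2, at 589 ± 63.7 CPM.

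In M2, *Elmo2*, the partner of Dock proteins, rose from 9.03 ± 2.95 to 26.4 ± 10.2 CPM (edgeR adjusted p = 0.0488) and *Lpxn*, a paxillin relative of leukocytes, from 79.4 ± 21.2 to 207 ± 25.4 CPM (edgeR adjusted p = 0.00073). *Elmo2* was at 6.56 to 12.3 CPM in M0. It was at 10.8, 26.2 and 25.8 CPM in CaP_rods and at 16.9, 18.2 and 14.1 CPM in SiO2_rods, and was not called against M0 in either. The formin *Daam1* fell from 1.54 ± 0.581 to 0.444 ± 0.211 CPM (edgeR adjusted p = 0.0138) and the filopodial myosin *Myo10* from 22.4 ± 0.748 to 10.2 ± 2.27 CPM (edgeR adjusted p = 0.00708). The fall of *Daam1* rested on 8 to 79 counts per library in M0 and 3 to 42 in M2. *Daam1* stood at 5.74 ± 1.01 CPM in M1, so M1 and M2 lay on opposite sides of M0, and M1 was higher than M2 by a log2 fold change of 3.50 (edgeR adjusted p = 5.9e-06). *Cotl1*, an F-actin-binding coactosin, was lower in M1 than in M2 (26.5 ± 4.69 and 65.0 ± 23.5 CPM, edgeR adjusted p = 0.00939).

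Of the 94 genes 1 was called in CaP_rods against M0 (0.654% of all genes), 0 in SiO2_rods against M0 (0.264%) and 0 between the microrods (0.018%). A count of 1 among 94 is near the background. *Rhoc*, a GTPase related to *Rhoa*, was at 77.9, 129 and 107 CPM in M0 and at 222, 232 and 256 CPM in CaP_rods, without overlap. It was at 189.6, 200.5 and 177 CPM in SiO2_rods, also above all M0 libraries. The log2 fold change against M0 was 1.18 for CaP_rods (SE 0.22, edgeR adjusted p = 0.0299) and 0.85 for SiO2_rods (SE 0.22, edgeR adjusted p = 0.219), and the difference between the microrods was 0.32 (SE 0.22, edgeR adjusted p = 1). In M1 it was at 202, 282 and 274 CPM (log2 fold change 1.27, SE 0.22, edgeR adjusted p = 0.00154). Its relative *Rhoa* had an estimate of -0.58 in CaP_rods, as given above.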

How the data were processed

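RNA-seq of 15 MH-S libraries in 5 groups of 3 was analysed. The authors made Smart-seq2 libraries without molecular identifiers, aligned the reads to GRCm39 with STAR, quantified them with Salmon (nf-core/rnaseq) and deposited counts, whole numbers per Ensembl gene without normalization. Salmon estimates counts, so these may be rounded. Every column was mapped to a sample by name, with 0 left unused. Symbols were given to 51487 of 78317 identifiers from GENCODE M21, an annotation of another build (GRCm38), which also gave transcript length, GC content (known for 90.7% of genes tested) and shared 31-base stretches.

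Counts were tested in R 4.3.3 with edgeR 4.0.16 (filterByExpr, TMM, bias-adjusted quasi-likelihood, all 15 libraries, group only, no replicate block, Benjamini-Hochberg over 16654 genes). The study's thresholds for a call were kept. The study's tool, DESeq2 (version 1.42.0 here), was an alternative. With 3 libraries per group an exact permutation test of 1 value cannot give a p below 0.1, so model p-values are given. Levels are CPM on the TMM scale, and log2 CPM for spreads and correlations used a prior count of 2.

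Named genes were *Actb*, *Actg1*, every gene called, the 5 with the largest within-group SD, the 3 largest changes in each comparison without a call, and the 2 largest called changes in each direction among other actin genes. The genes and lists were chosen with earlier results of these data known. Same-numbered replicates were not paired in the model, as the labels give no pairing. In 0 of 6 comparisons did every pair of same-numbered libraries deviate together (r over 0.1). Alternatives were other normalizations, filters, libraries in the model, thinning, a replicate block and leaving out each library, with the legacy and robust quasi-likelihood and GC offsets added after the data were seen.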

Additional observations from a re-analysis of the deposited data

How the results depend on the processing

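No recomputed result changed direction under the alternatives run. The counts of genes called moved in several. In M1 against M0 (1 of 40), 2 were called with no minimum fold change, 2 with DESeq2 (*Vasp* and *Fscn1*), 3 without a filter on low counts and 0 to 1 with 1 library left out, with 0 without M0 replicate 1 and without M1 replicate 2, and without M0 replicate 3 or M1 replicate 3 the 1 gene was *Fscn1*. In M2 against M0 (0), 3 were called with DESeq2, 3 without a filter and 0 to 3 with 1 library left out, with 3 (*Actr2*, *Gsn* and *Zyx*) without M2 replicate 2. In M1 against M2 (5), 6 were called with DESeq2, *Dock2* being added, 2 with only the 6 libraries compared in the model, 3 with GC offsets and 2 to 6 with 1 library left out, with 2 (*Arpc4* and *Vasp*) without M1 replicate 1. In CaP_rods against M0 (0), 1 was called with DESeq2, 5 without a filter and 0 to 1 with 1 library left out. In SiO2_rods against M0 (0), 3 were called without a filter and 0 with any library left out, and in CaP_rods against SiO2_rods the count was 0 in all of them. Without a filter some edgeR adjusted p-values fell sharply (*Actb* in CaP_rods against M0, from 0.108 to 5.1e-13). Others rose (*Arpc4* in M1 against M2, from 0.00459 to 0.0772), and the cause was not tested. The *Actb* ratio of 3.83 was 3.71 to 3.86 under other scalings and 2.47 to 3.83 with 1 library left out.

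A replicate block changed no count (1, 0, 5, 0, 0 and 0 genes called in the 6 comparisons). The labels do not say whether same-numbered samples belong together. Correlations of same-numbered deviations ran from -0.71 to 0.71 and cannot decide this with 3 libraries per group that also differ in depth and GC. Low genes such as *Vcl* and *Fscn1* are limited by counts. With 3 libraries per group, differences well above the SEs given could also go uncalled. An example is *Actb* in CaP_rods against M0 (log2 fold change -1.03, SE 0.27, edgeR adjusted p = 0.108). A gene that was not called may therefore still differ.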
